A study of Mus musculus with 2 samples.

Results

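The 10 genes described here encode proteins that bind microtubules along their length or hold free tubulin in growing neurons. They are the tau and MAP2 pair (Mapt and Map2), the MAP1 pair (Map1a and Map1b), the doublecortin pair (Dcx and Dclk1) and the 4 stathmins (Stmn1, Stmn2, Stmn3 and Stmn4). The genes were chosen by symbol, with no measured value in the rule but with earlier results of these data known. All 10 were found among the 21474 protein-coding genes of the deposited tables. The tissue was hindbrain, the source of the medulla, pons and cerebellum, from embryos of the mouse strain B6NCrl at day 16.5 of gestation. Male and female embryos were pooled, with 37 embryos in the pool of replicate 2, and for replicate 1 the sources used here do not give the number. RNA longer than 200 bases was purified with the mirVana kit, 10 ng entered each library, spike-in RNA was added, and the linked protocol covers a SMARTer Ultra Low kit. There was a single group of 2 replicate pools with no treatment, no mutant and no second stage, so the data give levels, their order and the spread between pools.

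Microtubules are hollow polymers of alpha- and beta-tubulin that fill axons and dendrites. In neurons, tau, MAP2 and the MAP1 proteins coat and steady the polymer, tau mainly in axons and MAP2 mainly in cell bodies and dendrites. Doublecortin and its relatives bind between the protofilaments and are known for their part in neuronal migration and axon growth, and stathmins bind tubulin dimers and favour disassembly. In this bulk tissue, fewer cells of a type and less RNA per cell cannot be told apart.

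The libraries held 42467811 expected counts in replicate 1 and 42017008 expected counts in replicate 2, spike-ins included. Levels between genes are given in TPM, a relative abundance on a fixed total, which corrects for transcript length. The deposited files also hold an interval around each TPM, whose confidence level is not stated, and each belongs to a single library, so that it does not hold the spread between pools. All 8 neuronal markers were detected in both pools, and summed to 4368 TPM in replicate 1 and 4569 in replicate 2, and all 7 hindbrain markers were detected, at a sum of 195 TPM in replicate 1 and 207 in replicate 2. The pool of replicate 1 also held RNA that replicate 2 had little of. Skeletal muscle markers, 6 genes, came to 190 TPM in replicate 1 against 3.8 TPM in replicate 2, all 6 past 2-fold, and none was at 0. For the 8 forebrain markers the sum was 19.5 TPM in replicate 1 and 0.39 in replicate 2, where the counts of 2 genes were 0. The part of these other tissues in the values of the 10 genes was not tested, and each value is therefore given for both pools.

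All 10 genes reached 1 TPM in both pools, a level that 63.5% of protein-coding genes reached. At 100 TPM in both pools there were 9 of the 10, all but Map1a, where 7.76% of protein-coding genes stood. The median level of the 10 was 605 TPM, against 18.97 TPM over the protein-coding genes with a mean of at least 1 TPM. Together they took 9994 TPM in replicate 1 and 10485 TPM in replicate 2, or 1.02% of all TPM. The 4 stathmins held 78.1% of that sum, at 7999 ± 321 TPM (SD, n = 2), against 1240 ± 29.5 TPM for tau and MAP2, 668 ± 27.5 TPM for the MAP1 pair and 333 ± 31.0 TPM for the doublecortin pair.

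**Figure D1:**
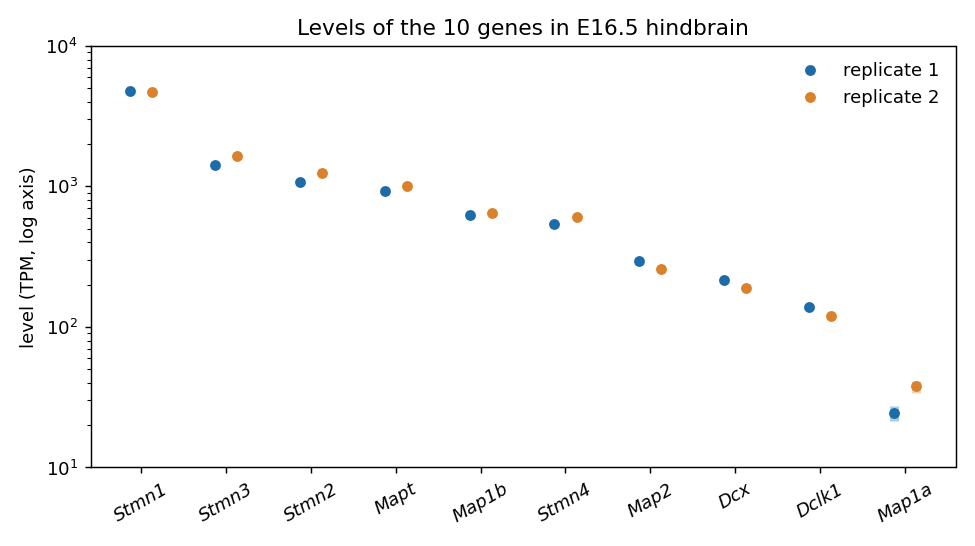
Level of each gene in TPM on a log axis, ordered by mean, with a point for replicate 1 (left) and replicate 2 (right) and a pale bar for the deposited interval. The points of a gene lie close together beside the range over genes, which runs from 4741 TPM for Stmn1 to 31.4 TPM for Map1a.

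Mapt (ENSMUSG00000018411, chr11:104231390-104332090, plus strand) encodes tau, the axonal protein that forms tangles in Alzheimer disease. Its level was 923.1 TPM in replicate 1 and 1004.44 TPM in replicate 2, from 62367 expected counts in replicate 1 and 67461 in replicate 2, which ranked it 82 among protein-coding genes. Replicate 2 was the higher by 1.10-fold.

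Tau transcripts differ by cassette exons, and the 12 annotated Mapt transcripts were split by the exons they hold. A first and a second exon of 87 bases, at chr11:104287123-104287209 and chr11:104289908-104289994, each code for an insert in the projection domain, and a 54-base exon at chr11:104307881-104307934 codes for a stretch nearer the microtubule-binding repeats. These 3 exons are shown because the main Mapt transcripts differ by them. They are printed 5′ to 3′ on the coding strand of GRCm38, from the GENCODE M21 transcripts.
Mapt first 87-base exon: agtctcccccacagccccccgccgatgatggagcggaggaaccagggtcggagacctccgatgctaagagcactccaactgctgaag
Mapt second 87-base exon: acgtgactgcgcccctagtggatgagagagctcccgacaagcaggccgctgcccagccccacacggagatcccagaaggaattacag
Mapt 54-base exon: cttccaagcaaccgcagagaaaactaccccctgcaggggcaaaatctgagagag

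Transcripts with neither 87-base exon held 80.38% of Mapt TPM in replicate 1 and 79.62% in replicate 2 (80.0% ± 0.537, SD, n = 2). The transcript with both of them, Mapt-201, held 15.04% in replicate 1 and 15.25% in replicate 2. Forms without the inserts thus stood 5.28-fold above the form with both, at 5.35-fold in replicate 1 and 5.22-fold in replicate 2. By expected counts the same ratio was 13.0 in replicate 1 and 12.4 in replicate 2. Mapt-201 is annotated with 1362 bases, and the forms without the inserts with 5253 (Mapt-204) and 1527 (Mapt-205). The size of the ratio thus depends on the annotated ends. The annotation has no complete coding transcript with 1 of the 2 inserts alone, so that form was not measured. All 5 complete coding Mapt transcripts hold a 93-base exon that codes for a microtubule-binding repeat, so forms without that exon were not measured either.

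Among the forms without 87-base exons, Mapt-205, which holds the 54-base exon, took 45.02% of TPM in replicate 1 and 46.27% in replicate 2. Mapt-204, which skips it, took 35.36% in replicate 1 and 33.35% in replicate 2. By expected counts the order turned round, with 23.9% for Mapt-205 and 67.7% for Mapt-204 in replicate 1, and 25.3% and 65.8% in replicate 2. Mapt-204 is annotated with 5253 bases and Mapt-205 with 1527, and TPM divides the reads by those lengths. Which of the pair leads therefore depends on the annotated ends.

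The large-exon forms known as big tau, a product of peripheral neurons, held 0.44% of Mapt TPM in replicate 1 and 0.34% in replicate 2. These forms, Mapt-202 and Mapt-203, came to 4.15 TPM in replicate 1 and 3.45 TPM in replicate 2. Partial coding transcripts held 0.33% in replicate 1 and 0.03% in replicate 2, and non-coding transcripts 3.81% in replicate 1 and 4.77% in replicate 2.

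Map2 (ENSMUSG00000015222, chr1:66175273-66442583, plus strand) encodes MAP2, whose high molecular weight forms mark dendrites and whose low molecular weight forms are known from young neurons. It stood at 296.12 TPM in replicate 1 and 256.5 TPM in replicate 2, rank 517, from 29226 expected counts in replicate 1 and 25898 in replicate 2. Mapt was 3.49-fold above Map2, with a log2 ratio of Map2 over Mapt of -1.80 ± 0.23 (SD, n = 2), and the intervals of the pair were apart in both pools. Coding exons of equal length in the 2 genes, of 82, 113 and 213 bases, are identical without gaps at 73.2%, 65.5% and 66.2% of bases. Here and in the pairs below, a pair was called different when the intervals of the genes were apart in each pool and both pools gave the same direction.

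High molecular weight Map2 is made by including a 3741-base exon at chr1:66412407-66416147 and 2 exons after it, 4083 coding bases in all. The junctions that tell the forms apart are shown with the end of the shared exon in lower case and the first 30 bases after it in capitals. The main low molecular weight transcript (ENSMUST00000024639) skips the large exon, so that its junction joins exons within chr1:66401444-66420196, and the high molecular weight transcript (ENSMUST00000114013) goes on into it, within chr1:66401444-66416147.
Map2 low molecular weight junction: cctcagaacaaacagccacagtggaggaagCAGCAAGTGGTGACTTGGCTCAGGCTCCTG
Map2 high molecular weight junction: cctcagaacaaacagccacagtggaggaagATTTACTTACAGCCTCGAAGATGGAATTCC
The complete high molecular weight transcript held 11.47% of Map2 TPM in replicate 1 (33.97 TPM) and 14.4% in replicate 2 (36.95 TPM). The 6 complete low molecular weight transcripts held 52.91% in replicate 1 (156.67 TPM) and 47.93% in replicate 2 (122.96 TPM). Low molecular weight forms were therefore 4.61-fold above the high molecular weight form in replicate 1 and 3.33-fold above it in replicate 2 (log2 ratio 1.97 ± 0.33, SD, n = 2). By expected counts the ratio was 3.84 in replicate 1 and 2.78 in replicate 2. The high molecular weight transcript is annotated with 6258 bases, 5484 of them coding, and the main low molecular weight one with 5195, 1401 of them coding. The size of the ratio thus depends on the annotated ends, and partial coding transcripts are in neither sum.

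Most of the low molecular weight sum came from its main transcript, with 41.69% of Map2 TPM in replicate 1 and 35.82% in replicate 2, and from a transcript with the same coding length (ENSMUST00000114015), with 6.49% in replicate 1 and 8.23% in replicate 2. Both lack a 93-base exon that codes for a further microtubule-binding repeat, as does the high molecular weight transcript. The repeat exon joins on at the site shown here, where the main transcript goes to the next exon and ENSMUST00000114018 to the 93-base exon, with the first 30 bases after the junction in capitals (chr1:66425197-66433595 and chr1:66425197-66431619).
Map2 junction without the 93-base exon: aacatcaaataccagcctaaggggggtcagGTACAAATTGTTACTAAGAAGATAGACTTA
Map2 junction with the 93-base exon: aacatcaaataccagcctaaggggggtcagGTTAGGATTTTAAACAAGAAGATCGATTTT
Low molecular weight transcripts with the 93-base exon held 2.26% of Map2 TPM in replicate 1 and 2.68% in replicate 2, all of it from ENSMUST00000114018, since the second such transcript was at 0 in both pools. The sum over all 6 low molecular weight transcripts, these included, was 20.4-fold that of the forms with the repeat exon.

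The rest of the Map2 TPM was listed on partial coding and non-coding transcripts. Partial coding transcripts held 21.12% in replicate 1 and 21.48% in replicate 2. Most of it came from ENSMUST00000156636, a transcript of 546 bases, with 17.54% in replicate 1 and 17.26% in replicate 2. That transcript took only 1.99% of the Map2 counts in replicate 1 and 1.97% in replicate 2, so a small number of reads on a short feature gave that share. Non-coding transcripts held 14.5% in replicate 1 and 16.19% in replicate 2, most of it the retained-intron transcript ENSMUST00000128673 at 9.76% in replicate 1 and 10.72% in replicate 2. The antisense gene Gm10558 overlaps Map2, at 11.43 TPM in replicate 1 and 14.49 TPM in replicate 2. The use of strand in counting is not given. An expected count is whole where no read was split between genes. Those of Map2 were whole in both pools, as were those of Gm10558, at 448 in replicate 1 and 582 in replicate 2. Whether reads of either gene were counted whole for the other was not tested.

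**Figure D2:**
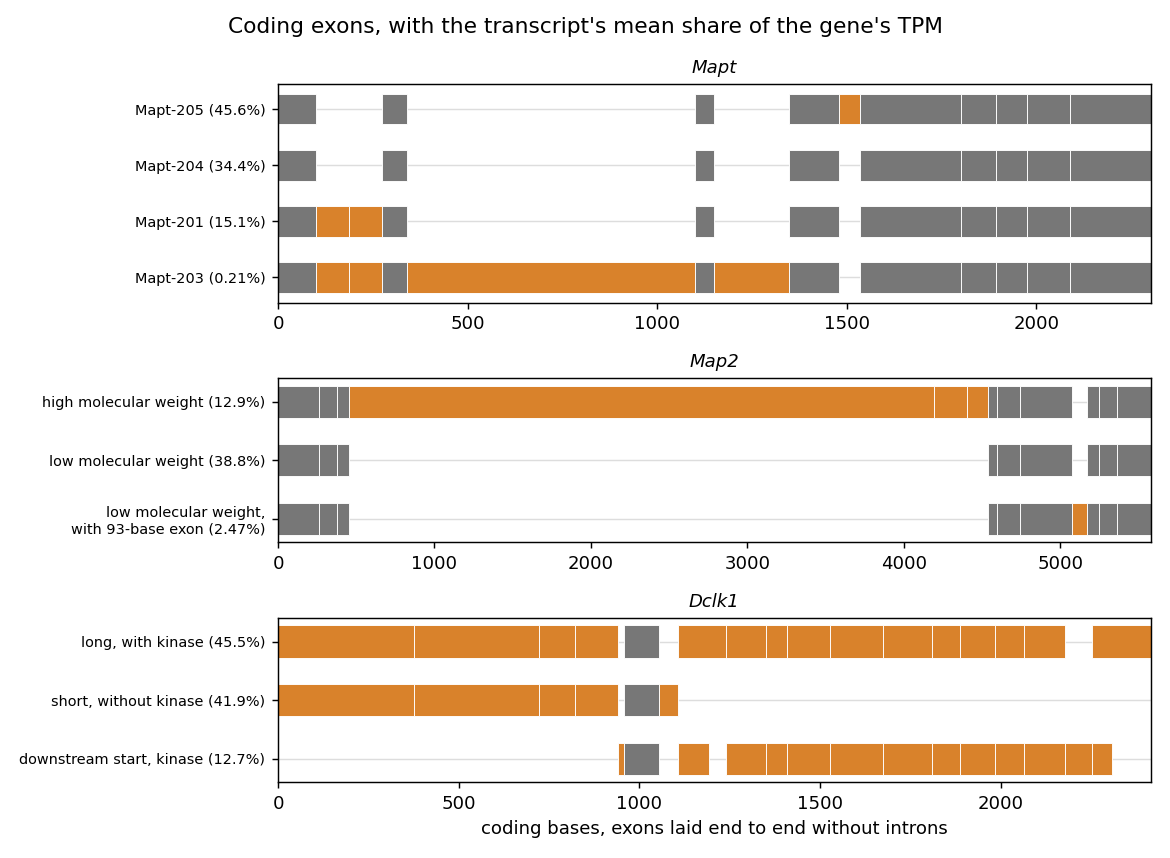
Coding exons of the main transcripts of Mapt, Map2 and Dclk1, laid end to end in coding bases, with introns left out. Grey exons are in every transcript drawn for that gene and orange exons are in some of them, and the label gives each transcript's mean share of the gene's TPM, such as 38.8% for the main low molecular weight Map2 transcript and 12.9% for the high molecular weight one.

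Map1b (ENSMUSG00000052727, chr13:99421446-99516540, minus strand) encodes the MAP1 protein of growing axons, which is cut into a heavy and a light chain. It had the most counts of the 10 genes, 184010 in replicate 1 and 196153 in replicate 2, on a transcript of 11852 bases. On the length-corrected scale that was 623.74 TPM in replicate 1 and 648.87 TPM in replicate 2, rank 146. It stood 2.31-fold above Map2 (log2 ratio 1.21 ± 0.19, SD, n = 2), and the pair was called different.

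Map1a (ENSMUSG00000027254, chr2:121289600-121310832, plus strand), which codes for the related protein known from mature neurons, was the lowest of the 10. It had 24.48 TPM in replicate 1 and 38.24 TPM in replicate 2, rank 5074, from 3849 expected counts in replicate 1 and 5464 in replicate 2. Map1b exceeded Map1a by 20.8-fold, at 25.5-fold in replicate 1 and 17.0-fold in replicate 2 (log2 ratio 4.38 ± 0.41, SD, n = 2), and Mapt exceeded it by 31.5-fold (4.98 ± 0.37). Both gaps are far wider than the spread between pools, and both pairs were called different.

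Much of the Map1a level sat on fragments. A pair of non-coding transcripts of 457 and 411 bases held 45.38% of its TPM in replicate 1 and 51.17% in replicate 2. They took 89.1 expected counts in replicate 1 and 161 in replicate 2, which is 2.32% of the gene's counts in replicate 1 and 2.95% in replicate 2. The 2 coding transcripts alone came to 13.37 TPM in replicate 1 and 18.67 TPM in replicate 2, which puts Map1a lower still. The gene Ppip5k1 overlaps Map1a on the opposite strand, at 18.85 TPM in replicate 1 and 19.37 TPM in replicate 2. Both genes had fractional expected counts, as where reads are split between genes. Those of Ppip5k1 were 977.1 in replicate 1 and 1030.16 in replicate 2, and those of Map1a 3848.90 and 5463.84. How far reads of Ppip5k1 enter the Map1a counts was not tested.

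Dcx (ENSMUSG00000031285, chrX:143855842-143933311, minus strand) encodes doublecortin, carried by migrating neurons and mutated in human X-linked lissencephaly. It stood at 215.53 TPM in replicate 1 and 190.45 TPM in replicate 2, rank 746, from 29546 expected counts in replicate 1 and 27820 in replicate 2. Its level lay below that of Map2, which was 1.36-fold higher (log2 ratio of Dcx over Map2 of -0.44 ± 0.020, SD, n = 2). That gap was called from all transcripts but not from protein-coding transcripts alone. There the mean log2 ratio was -0.31 and the intervals were no longer apart in both pools. For that setting the bounds of a gene's coding transcripts were summed, 16 for Map2 and 4 for Dcx. Bounds summed this way make a wide interval, so the lost call does not show that the levels are alike.

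Dclk1 (ENSMUSG00000027797, chr3:55242364-55539068, plus strand) encodes doublecortin-like kinase 1, whose longest form joins doublecortin domains to a protein kinase domain. The gene had 139.14 TPM in replicate 1 and 120.34 TPM in replicate 2, rank 1286, from 24174 expected counts in replicate 1 and 21166 in replicate 2. Dcx was 1.57-fold above it (log2 ratio 0.65 ± 0.022, SD, n = 2), and the pair was called different.

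The 3 Dclk1 transcripts in the files differ in which domains they code for. The long form (ENSMUST00000054237) starts upstream and codes for both the doublecortin domains and the kinase. The short form (ENSMUST00000167204) starts upstream and ends before the kinase, and the downstream form (ENSMUST00000070418) codes for the kinase without the doublecortin domains. The split between the upstream forms falls after a shared 95-base exon, and the first 30 bases after it are in capitals (chr3:55463001-55466626 and chr3:55463001-55477937).
Dclk1 short form junction: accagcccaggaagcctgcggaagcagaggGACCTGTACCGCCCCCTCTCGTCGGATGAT
Dclk1 long form junction: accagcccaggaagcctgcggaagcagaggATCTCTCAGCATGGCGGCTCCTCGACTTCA
In the short form the exon after that junction, at chr3:55466573-55466629 with the stop codon included, ends the protein. It is shown with the stop codon in capitals.
Dclk1 last coding exon of the short form: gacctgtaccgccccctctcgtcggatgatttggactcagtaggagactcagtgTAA

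The long form with the kinase held 47.87% of Dclk1 TPM in replicate 1 (66.61 TPM) and 43.06% in replicate 2 (51.82 TPM). The short form without it held 39.67% in replicate 1 (55.19 TPM) and 44.03% in replicate 2 (52.99 TPM). The ratio of long to short was 1.21 in replicate 1 and 0.978 in replicate 2, so the pools differ in which form is higher and the forms cannot be ordered in TPM. By expected counts the ratio was 1.58 in replicate 1 and 1.28 in replicate 2, on annotated lengths of 7847 bases for the long and 6026 for the short form. The downstream kinase form was lower in both pools, at 12.46% in replicate 1 and 12.9% in replicate 2, and the long form exceeded it by 3.58-fold (log2 ratio 1.84 ± 0.14, SD, n = 2). Forms from the upstream start held 87.5% in replicate 1 and 87.1% in replicate 2. GENCODE M21 lists 11 coding Dclk1 transcripts, and the other 8 had no value of their own in these files.

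The annotated starts of the upstream and downstream forms lie 219232 bases apart. The RefSeq promoter windows of 300 bases on GRCm38.p6, at chr3:55242114-55242413 for the upstream and chr3:55461478-55461777 for the downstream start, are shown because they are the RefSeq windows nearest to those starts, with each CG dinucleotide in capitals. The annotated start of the upstream forms lies 162 bases after the RefSeq start, outside the printed window, and that of the downstream form 30 bases after it.
Dclk1 upstream promoter: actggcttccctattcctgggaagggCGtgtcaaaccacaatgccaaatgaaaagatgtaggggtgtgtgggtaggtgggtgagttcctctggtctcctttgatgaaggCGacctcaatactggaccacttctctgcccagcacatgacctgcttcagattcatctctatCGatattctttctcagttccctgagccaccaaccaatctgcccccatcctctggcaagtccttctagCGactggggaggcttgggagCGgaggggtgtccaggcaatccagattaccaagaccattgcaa
Dclk1 downstream promoter: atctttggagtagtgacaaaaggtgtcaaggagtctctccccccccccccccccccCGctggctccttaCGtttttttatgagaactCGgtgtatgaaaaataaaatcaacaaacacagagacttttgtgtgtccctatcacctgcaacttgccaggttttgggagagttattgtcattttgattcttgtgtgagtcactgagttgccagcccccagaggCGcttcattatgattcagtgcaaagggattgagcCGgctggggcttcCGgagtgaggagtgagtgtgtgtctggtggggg
The letters CG, which read the same on both strands, occur 5 times in the upstream and 6 times in the downstream window. The median over 32851 mouse promoter windows of that length was 7, and 62.0% of windows hold at least 5 and 56.4% at least 6. Promoter entries existed for 6 of the 10 genes, and by the window with most CG Map2 had 37, Map1a 27, Map1b 23, Stmn3 6 and Dcx 3.

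**Figure D3:**
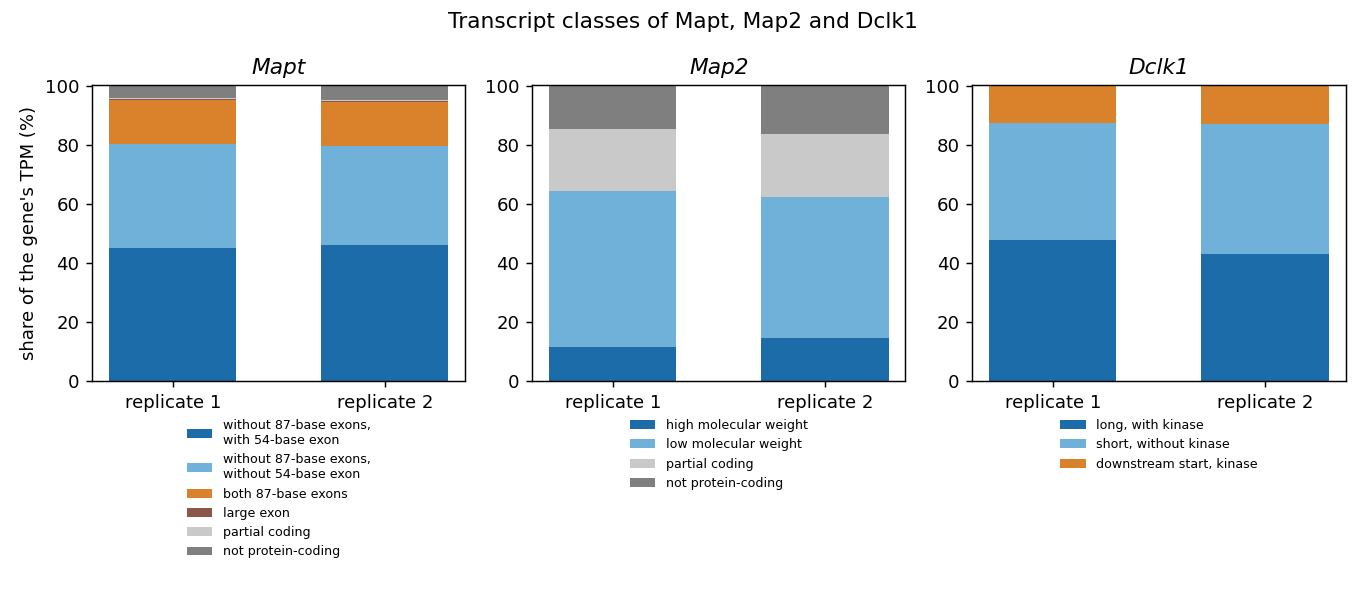
Share of each gene's TPM by transcript class, in percent, as stacked bars for replicate 1 and replicate 2. In Mapt and Map2 the same class leads in both pools, whereas in Dclk1 the long form leads in replicate 1 at 47.87% and the short form in replicate 2 at 44.03%.

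Stmn1 (ENSMUSG00000028832, chr4:134468320-134473843, plus strand) encodes stathmin itself, a soluble protein of dividing cells and young neurons. It was by far the most abundant of the 10, at 4746.81 TPM in replicate 1 and 4736.07 TPM in replicate 2, and ranked 7 among protein-coding genes. The expected counts were 114151 in replicate 1 and 116342 in replicate 2. In TPM the pools differed by less here than for any other of the 10 genes, and Stmn1 was the only gene of the 10 whose intervals overlapped between pools. Its main transcript (ENSMUST00000030636) held 99.06% of TPM in replicate 1 and 98.17% in replicate 2.

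The other stathmins are neuronal proteins held on Golgi and vesicle membranes through an N-terminal stretch that Stmn1 lacks. Stmn2 (ENSMUSG00000027500, chr3:8509360-8561606, plus strand), known as SCG10 and found in growth cones, had 1071.81 TPM in replicate 1 and 1241.96 TPM in replicate 2. Stmn3 (ENSMUSG00000027581, chr2:181306459-181314500, minus strand), also called SCLIP, had 1409.87 TPM in replicate 1 and 1645.8 TPM in replicate 2. For Stmn4 (ENSMUSG00000022044, chr14:66344296-66361680, plus strand), also called RB3, the levels were 543.83 TPM in replicate 1 and 602.23 TPM in replicate 2. The 3 ranked 60, 36 and 172, and each was higher in replicate 2.

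The order Stmn1, Stmn3, Stmn2, Stmn4 was the same in both pools. Stmn1 was 4.11-fold above Stmn2 (log2 ratio 2.04 ± 0.15, SD, n = 2). Stmn3 was 1.32-fold above Stmn2 (log2 ratio of Stmn2 over Stmn3 of -0.40 ± 0.0075), and Stmn2 was 2.02-fold above Stmn4 (1.01 ± 0.046). Stmn3 was 2.66-fold above Stmn4 (1.41 ± 0.054). All 4 pairs were called different, and the ratio of Stmn2 to Stmn3 had the smallest spread of the 10 pairs compared.

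The membrane stretch can be seen in the first 120 coding bases, shown with the cysteine codons in capitals. Cysteines in this stretch of Stmn2 are known to carry the palmitate that anchors it. The bases come from the main transcript of each gene, on the coding strand, and its coding region spans chr4:134470163-134473400 for Stmn1, chr3:8509612-8560322 for Stmn2, chr2:181306767-181314212 for Stmn3 and chr14:66354433-66361131 for Stmn4.
Stmn1 coding start: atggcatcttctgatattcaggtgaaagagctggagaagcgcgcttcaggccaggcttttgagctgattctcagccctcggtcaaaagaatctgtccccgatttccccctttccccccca
Stmn2 coding start: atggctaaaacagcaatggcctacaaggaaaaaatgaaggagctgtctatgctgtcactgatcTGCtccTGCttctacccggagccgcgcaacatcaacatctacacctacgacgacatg
Stmn3 coding start: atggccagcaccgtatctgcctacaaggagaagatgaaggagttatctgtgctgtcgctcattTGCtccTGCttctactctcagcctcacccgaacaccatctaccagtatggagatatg
Stmn4 coding start: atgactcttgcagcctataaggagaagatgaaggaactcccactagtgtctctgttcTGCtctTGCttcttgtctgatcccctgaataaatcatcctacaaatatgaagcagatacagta
Stmn2 and Stmn3 have cysteine codons at positions 22 and 24, counted from the start codon, and Stmn4 has them at 20 and 22. Stmn1 has none in its 149 codons. Outside the printed stretch, Stmn4 has further cysteine codons at 45 and 58. A 192-base exon common to all 4 genes is identical at 69.8% of bases between Stmn3 and Stmn4 and at 79.2% between Stmn1 and Stmn4, with the other 4 pairings in between. Reads shared between genes can be looked for in the expected counts, which are whole where no read was split. To the 2 decimals deposited, they were whole in both pools for 8 of the 10 genes, as for 72.9% of protein-coding genes with a mean of at least 1 TPM and 61% of those with at least 100 TPM. The exceptions were Stmn1, with 114150.97 in replicate 1 and 116341.66 in replicate 2, and Map1a, with 3848.90 in replicate 1 and 5463.84 in replicate 2.

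Set in order of level, the 10 genes ran Stmn1, Stmn3, Stmn2, Mapt, Map1b, Stmn4, Map2, Dcx, Dclk1 and Map1a. Each of the 9 neighbouring pairs kept its direction in both pools with intervals apart, so each step was called. The widest steps were at the ends, with Stmn1 3.11-fold above Stmn3 and Dclk1 4.23-fold above Map1a. The narrowest was Map1b over Stmn4, 1.11-fold with a log2 ratio of 0.15 ± 0.064 (SD, n = 2). The calls rest on 2 pools, and a sign-flip permutation test over 2 pools cannot go below 0.5 (two-sided), so no p-value was computed.

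The deposited intervals need care for genes at this level. They are placed around a posterior mean and not around the listed TPM, and the TPM lay inside its interval in both pools for 94.4% of protein-coding genes with a mean of at least 1 TPM but for 69.4% of those with a mean of at least 100 TPM. Of the 10 genes, only Map1a and Map2 had TPM inside the interval in both pools. For Stmn1 the listed 4746.81 TPM of replicate 1 stood above an interval of 4611 to 4665. The order of the 10 genes was the same with the posterior mean TPM.

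Between the pools, 3 genes were higher in replicate 1 (Map2, Dcx and Dclk1) and 7 in replicate 2. None passed 2-fold in the log2 ratio of scaled counts, a limit passed by 1.5% of protein-coding genes with a mean of at least 1 TPM and by 0.285% of those with at least 100 TPM. The lower limit of 1.2-fold was passed by 3 of the 10, against 22.6% and 8.71% of those genes. The 3 were Map1a, with a log2 ratio of replicate 1 over replicate 2 of -0.53, Stmn3 with -0.28 and Stmn2 with -0.27, all higher in replicate 2. Map1a was 1.44-fold higher in replicate 2, and 5.58% of protein-coding genes with a mean of at least 1 TPM had a larger ratio in either direction. The 5 astrocyte markers, all detected, summed to 641 TPM in replicate 1 and 812 in replicate 2, and the part of astrocytes in the ratios of the 10 genes was not tested.

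The other ratios were small. Map2 had a log2 ratio of 0.15, Dcx 0.07 and Dclk1 0.17, and for Stmn1, Map1b, Mapt and Stmn4 the ratios were -0.05, -0.11, -0.13 and -0.19. Deposited intervals did not overlap between pools for 9 of the 10 genes, as for 31.4% of protein-coding genes with a mean of at least 1 TPM and 52.1% of those with at least 100 TPM. The median log2 ratio of the 10 was -0.12, against 0.0092 over genes with at least 1 TPM and -0.080 over genes with at least 100 TPM, of which 26.1% were higher in replicate 1. A lean toward replicate 2 was thus also seen over other abundant genes, and the 8 neuronal markers had a median of -0.069.

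Scaling by spike-in totals moved every gene by -0.44 on the log2 scale, since spike-ins were 2.18% of counts in replicate 1 and 1.60% in replicate 2. With that scaling all 10 genes were higher in replicate 2, so the direction of Map2, Dcx and Dclk1 turns and is stated only relative to other genes.

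Ratios also ran with transcript length. With protein-coding genes split into 10 bins of equal size by length, the median log2 ratio was -0.13 in the shortest bin and 0.12 in the longest. The 5 longest of the 10 genes, Map1b, Dclk1, Map1a, Dcx and Map2, had a median of 0.066 with 3 of 5 higher in replicate 1, and the 5 shortest, the stathmins and Mapt, had a median of -0.19 with 0 of 5 higher in replicate 1. Map1a, at -0.53, and Map1b, at -0.11, were long genes with ratios below 0. The part of length in these ratios was not tested.

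**Figure D4:**
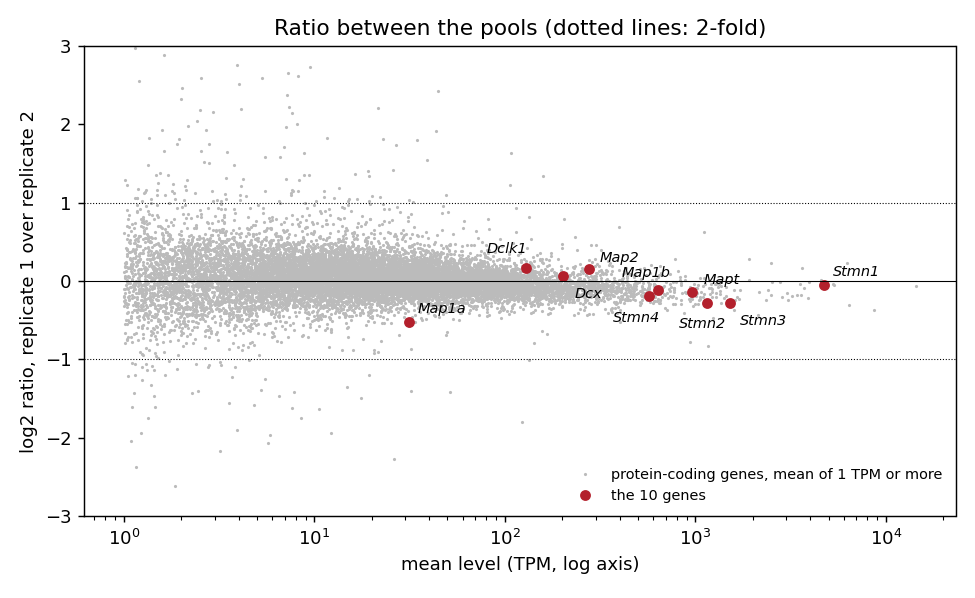
Log2 ratio of replicate 1 over replicate 2 against mean level in TPM (log axis), with the 10 genes in red over protein-coding genes with a mean of at least 1 TPM in grey and dotted lines at 2-fold. All 10 lie inside the lines and Map1a at -0.53 is the farthest out, and 35 grey genes fall outside the vertical range.

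Other genes of the microtubule system had lower median levels, list by list, than the 10 genes together. Of 38 other microtubule-associated and end-binding proteins, 37 reached 1 TPM in both pools and 8 reached 100 TPM, with a median of 34.7 TPM. Its highest were Map1lc3a at 616 ± 45.6 TPM and Map1lc3b at 301 ± 5.04 TPM, the LC3 proteins of autophagosome membranes, and the plus-end trackers Mapre1 at 308 ± 8.34 TPM and Mapre2 at 225 ± 18.5 TPM (SD, n = 2). Map7d3 was the lowest at 0.375 ± 0.0636 TPM. Map1lc3a had a level between those of Stmn4 and Map1b.

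The kinases and phosphatases that act on these proteins all reached 1 TPM in both pools, 32 of 32, with a median of 52.5 TPM. Subunits of protein phosphatase 2A and of protein kinase A led, with Ppp2r1a at 609 ± 1.61 TPM, Ppp2r2b at 227 ± 4.64 TPM, Prkaca at 190 ± 31.0 TPM and Prkacb at 167 ± 2.72 TPM. Brsk1, a kinase of neuronal polarity, was the lowest at 5.32 ± 0.332 TPM. In this list 1 gene passed 2-fold between pools, the tau kinase gene Mark3, with 22.84 TPM in replicate 1 and 10.62 TPM in replicate 2 (log2 ratio 1.05); it is named after its values were seen, and 1.5% of all protein-coding genes with a mean of at least 1 TPM passed that limit.

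Severing and tubulin-modifying enzymes had 22 of 25 members at 1 TPM in both pools and a median of 17.2 TPM over all 25. Over the 22 with a mean of at least 1 TPM the median was 23.6 TPM, against 18.97 TPM for protein-coding genes under the same limit. Atat1, the alpha-tubulin acetyltransferase, was the highest, with 329.22 TPM in replicate 1 and 239.33 TPM in replicate 2. Its log2 ratio of replicate 1 over replicate 2 was 0.46. After it came the vasohibin partner Svbp at 167 ± 2.57 TPM, the deacetylase Sirt2 at 105 ± 0.827 TPM and the glutamylase Ttll1 at 104 ± 5.63 TPM, and Fignl2 was the lowest at 0.065 ± 0.0212 TPM. All 14 genes of the lissencephaly complex and of dynein regulation reached 1 TPM, with a median of 83.2 TPM. Pafah1b3, a catalytic subunit of platelet-activating factor acetylhydrolase, stood at 479 ± 2.27 TPM, the dynactin gene Dctn2 at 267 ± 0.368 TPM, the related subunit Pafah1b2 at 179 ± 4.39 TPM, Dctn1 at 135 ± 7.56 TPM and the lowest, the dynein adaptor Bicd2, at 23.1 ± 2.98 TPM.

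The median log2 ratios of replicate 1 over replicate 2 were 0.085 for the other microtubule-associated proteins, -0.0022 for kinases and phosphatases, 0.094 for the severing and modifying enzymes and 0.058 for the lissencephaly and dynein genes, against -0.12 for the 10 genes. Spike-in scaling put all 4 list medians below 0.

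**Figure D5:**
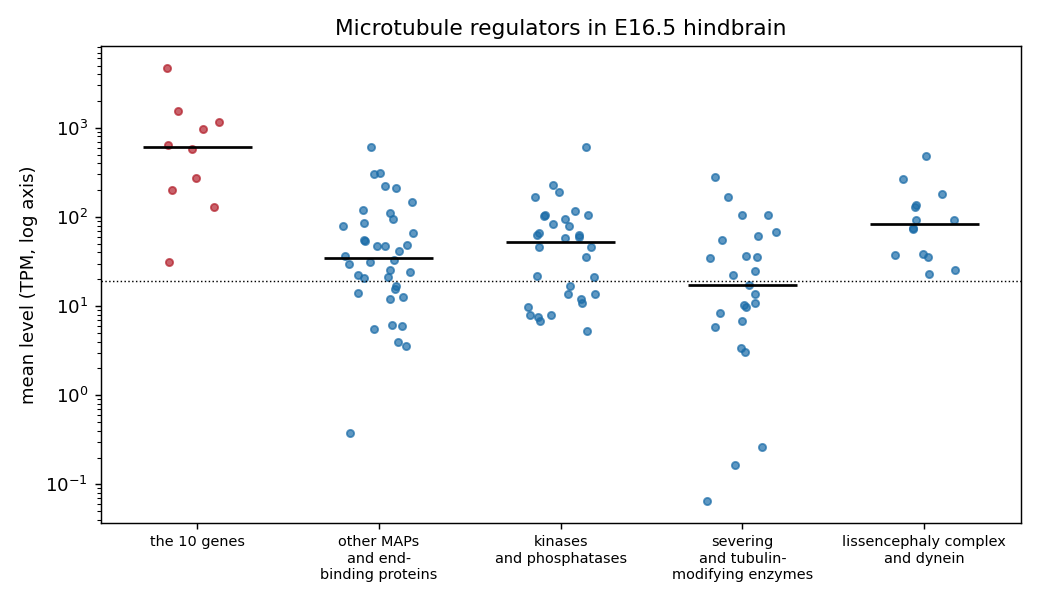
Mean level in TPM on a log axis of the 10 genes (red) and of 4 lists of other microtubule regulators (blue), a point per gene, with a bar at each median and a dotted line at 18.97 TPM, the median of protein-coding genes with a mean of at least 1 TPM. The median of the 10 genes, 605 TPM, lies above all 4 list medians, which run from 17.2 to 83.2 TPM.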

How the data were processed

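Per the deposited notes, the authors used GENCODE M4 on mm10 and quantified the replicates separately. The sources used here do not give the tool, its version or whether it counted by strand. The authors deposited an expected count per gene and per transcript, per the file headers, which is a model's estimate of its reads and can be fractional. The authors' deposited TPM and FPKM values divide by effective length, and TPM has the same total in each library, with spike-ins counted in. Deposited interval bounds on TPM were treated as scores, since their level is not given, and isoform shares are the percent of gene TPM that the authors list for each transcript.

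Of 43346 gene identifiers, 42462 matched GENCODE M21 on GRCm38, the same build, which gave names, types, exons and coding sequence. All 69 transcripts of the 10 genes matched, 67 of them with the deposited length (Map1b and Dclk1 have 1 each that differs). Promoters came from RefSeq on GRCm38.p6.

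For ratios between libraries, expected counts were rounded and TMM-scaled without spike-ins (edgeR 4.0.16 in R 4.3.3, prior count 0.5), with size factors from DESeq2 1.42.0 as an alternative. Python 3.11.15, pandas 2.3.3 and matplotlib 3.10.9 did the rest. Ratios were fitted over all genes, and the step was tested on simulated data. With 1 group there was no test between groups. Detection meant at least 1 TPM in each library, and 100 TPM was the high level.

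The genes and lists were chosen with earlier results of these data known, although the rule for the 10 genes held no measured value. Named genes are the 10 members, the 4 highest and the lowest of each list, transcripts with a mean share of 5% or more, and overlapping genes at 1 TPM or more. Mark3, Gfap, Aqp4 and Slc1a3 were chosen outside this rule, once their values had been seen. Of the overlapping genes, the snoRNA Gm22743 within Mapt had 1.17 TPM in replicate 1 and 1.14 TPM in replicate 2. The alternatives changed the unit, the scaling, the detection minimum, the prior count, the filter, the fold limit or the transcripts used, or left out a replicate. One denominator for isoform shares, complete coding transcripts, was added after seeing the data. Some items are not reported here.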

Additional observations from a re-analysis of the deposited data

How the results depend on the processing

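All 10 genes were detected under every alternative run except a minimum of 100 TPM, which 9 passed, and their order of level was the same throughout. Of the pairs, 49 of 50 alternative values kept their call, the exception being Dcx over Map2 with protein-coding transcripts alone. At 1.2-fold in place of 2-fold, 3 genes differed between the pools. The median log2 ratio of replicate 1 over replicate 2 was -0.57 with spike-in scaling. The share of Mapt with both 87-base exons, 15.1% of TPM, was 7.22% of counts, 15.8% of protein-coding TPM and 15.9% of complete coding TPM. High molecular weight Map2, 12.9% of TPM, was 20.3% of counts, 15.3% of protein-coding TPM and 20.5% of complete coding TPM. The long Dclk1 form, 45.5% of TPM, was 51.2% of counts. Isoform shares thus depend on the unit and the annotated transcripts. No paired analysis was possible because there was only 1 group. Each gene had at least 3849 expected counts in a library, and only 2 pools give the spread.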

Other observations

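Dcx and Stmn4 also had more than a single coding form. Coding Dcx transcripts with an exon of 98 bases held 39.44% of Dcx TPM in replicate 1 and 41.84% in replicate 2, and those with the 95-base version of that exon held 53.13% in replicate 1 and 51.56% in replicate 2. By expected counts the order was the other way, with 61.6% for the longer and 34.9% for the shorter version in replicate 1, and the main transcripts of each, Dcx-201 and Dcx-203, are annotated with 9074 and 4095 bases. The 3-base difference is of a kind that adds or removes a codon. For Stmn4, transcripts with an 81-base exon held 26.3% of TPM in replicate 1 and 26.4% in replicate 2, and those ending in an 18-base coding exon 8.9% in replicate 1 and 8.16% in replicate 2. The transcript without either (ENSMUST00000074523) held 63.63% in replicate 1 and 63.8% in replicate 2, and these shares differed little between pools or between TPM and counts.

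Among astrocyte markers, Gfap and Aqp4 differed more between the pools than any of the 10 genes did, and they and Slc1a3 are named after their values were seen. Gfap, an intermediate filament of astrocytes, had 4.03 TPM in replicate 1 and 13 TPM in replicate 2, and the water channel Aqp4 had 12.13 TPM in replicate 1 and 26.77 TPM in replicate 2. The log2 ratios of replicate 1 over replicate 2 were -1.75 for Gfap and -1.20 for Aqp4. Slc1a3, a glutamate transporter that radial glia also carry, differed little, with 221.74 TPM in replicate 1 and 214.34 TPM in replicate 2.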
